A study of Mus musculus with 16 samples.

Results

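The 275 genes described here are the expressed Zfp genes of mouse liver, which carry the mouse name stem for zinc finger proteins. They were chosen from 24539 genes by name (Zfp followed by a number) and by a mean of at least 2 CPM (reads of a gene scaled to a library total of 1000000) over the 4 total-mRNA libraries. Of 392 genes with such a name, 275 passed and 117 did not, and 17 of the 392 had 0 reads in all 4 libraries. Just inside the limit were Zfp651, Zfp619 and Zfp951, each at a mean of 2.06 CPM, and just outside were Zfp763 at 1.86, Zfp61 at 1.82 and Zfp526 at 1.80 CPM.

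The livers came from male C57BL/6 mice aged 16 weeks that had received, from the age of 8 weeks and for 8 weeks, a high-fat diet plus betaine (HB) or a high-fat diet alone (HF), so both groups share the high-fat diet and there is no group without it. Betaine is a methyl donor. Each diet had 2 libraries of total mRNA, 2 of ribosome-bound mRNA (mRNA pelleted with ribosomes and their nascent chains, RNC) and 2 m6A peak lists, which come from RNA fragments enriched with an antibody to N6-methyladenosine. Per the labels' protocols, material of independent experiments was pooled for the mRNA and ribosome-bound libraries, so p-values measure only the spread between these libraries, which may be technical.

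Most Zfp proteins bind DNA through a row of C2H2 zinc fingers, short loops held by a zinc ion. Many also carry a KRAB domain, which recruits the co-repressor Trim28 and, through it, the histone methyltransferase Setdb1, and these proteins are best known for silencing transposable elements and imprinted genes. KRAB zinc finger genes multiplied by tandem duplication and often sit side by side in clusters, with the finger array usually encoded by a single last exon. Other Zfp genes are unrelated in role. Zfp36 and its relatives bind AU-rich elements of mRNAs and speed their decay, and Zfp598 is a ubiquitin ligase that acts on collided ribosomes.

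Promoter windows of a RefSeq table (GRCm38.p6, 250 bases before to 50 after a gene start, strand of the gene) were matched for 230 of the 275 members. The promoters of 3 members with large falls in HB that were called with any 1 mRNA library left out are shown, with capitals for the motifs found on either strand. The motifs searched were the GC box GGGCGG, the CCAAT box CCAAT, the ETS core CCGGAAG, the NRF1 core CGCATGCG, the YY1 site AAGATGGCG, the cAMP element TGACGTCA and the TATA box TATAAA. The 3 are Zfp715 at chr7:43313251-43313550 on the minus strand, Zfp653 at chr9:22071327-22071626 on the minus strand and Zfp451 at chr1:33814546-33814845 on the minus strand. The start used in that table lies at the outer end of the RefSeq gene span for Zfp715, 19 bases inside it for Zfp653 and 1007 bases inside it for Zfp451, whose window therefore lies within the gene.
Zfp715: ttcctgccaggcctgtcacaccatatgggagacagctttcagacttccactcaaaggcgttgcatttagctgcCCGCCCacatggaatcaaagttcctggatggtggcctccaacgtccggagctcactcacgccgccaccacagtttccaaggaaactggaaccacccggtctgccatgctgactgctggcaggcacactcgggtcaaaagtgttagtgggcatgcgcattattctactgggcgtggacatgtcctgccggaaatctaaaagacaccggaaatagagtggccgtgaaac
Zfp653: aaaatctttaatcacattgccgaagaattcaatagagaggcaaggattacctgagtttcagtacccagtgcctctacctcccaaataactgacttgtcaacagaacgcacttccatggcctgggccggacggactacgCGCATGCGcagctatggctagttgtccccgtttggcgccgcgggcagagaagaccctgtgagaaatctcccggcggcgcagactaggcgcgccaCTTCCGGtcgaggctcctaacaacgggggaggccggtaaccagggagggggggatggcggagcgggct
Zfp451: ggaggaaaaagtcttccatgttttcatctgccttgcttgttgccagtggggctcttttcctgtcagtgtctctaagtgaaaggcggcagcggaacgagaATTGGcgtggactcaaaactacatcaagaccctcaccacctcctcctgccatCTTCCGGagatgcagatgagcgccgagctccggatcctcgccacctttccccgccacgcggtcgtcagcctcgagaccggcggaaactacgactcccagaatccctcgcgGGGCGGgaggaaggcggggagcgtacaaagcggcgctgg

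Zfp715 held a GC box, Zfp653 an NRF1 core and an ETS core, and Zfp451 a CCAAT box, an ETS core and a GC box. Among the 230 member promoters 50.9% held a CCAAT box, against 38.7% of 8564 promoters of other genes at 2 CPM or more and 38.0% of all 27025 promoters in the table. The GC box was in 47.0% of member promoters, against 64.2% of those other expressed genes and 35.9% of all promoters. The ETS core was in 22.6% of members, against 18.9% of other expressed genes and 9.14% of all, and the NRF1 core in 4.78%, against 4.10% and 1.92%. The TATA box was in 6.09% of members, against 7.41% and 14.2%, the YY1 site in 3.91%, against 3.44% and 1.48%, and the cAMP element in 3.48%, against 3.25% and 1.85%. Member promoters held a median of 14.5 CG pairs, against 21.0 in other expressed genes and 7 in all promoters. Within the members, 59 of those with a promoter were called lower in HB. The GC box was in 42.4% of those called lower and 48.8% of those not called, and the CCAAT box in 42.4% and 54.1%. These shares are descriptions of letters in a window and say nothing of binding.

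The mRNA libraries held 22492813 and 18011999 reads in HB, against 11437462 and 11570775 reads in HF. Ribosome-bound libraries were shallower, with 6508500 and 8659310 reads in HB, against 5778439 and 6431510 in HF. The 2 HB ribosome-bound libraries differed by little more than sampling noise (chi-square per degree of freedom 1.40, against 98.0 for the HF ribosome-bound pair, 98.5 for the HB mRNA pair and 34.7 for the HF mRNA pair), so they were summed and counted as 1 sample. Liver identity was as labelled, with 6 hepatocyte markers (Alb, Apoa1, Ttr, Apob, Serpina1a and Cps1) summing to 96676 and 83047 CPM in HB mRNA, against 73386 and 79324 CPM in HF mRNA.

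Zfp mRNAs were low in liver. The members' mean level had a median of 8.41 CPM with quartiles of 4.36 and 18.4, against a median of 20.9 CPM for the 10955 other genes at 2 CPM or more. Of the 275 members 85 lay at 2 to 5 CPM, 69 at 5 to 10, 55 at 10 to 20 and 66 at 20 or more, with 7 over 100 CPM. The 5 highest held 22.6% of all member reads. The lowest member count in a library was 16 and 10 reads in HB and 7 and 19 reads in HF, and the median member had 136 and 99 reads in HB and 122 and 131 in HF. By CPM the 5 highest were Zfp970, Zfp445, Zfp488, Zfp276 and Zfp36. Per length, in the authors' RPKM, the highest was Zfp36, at 53.4 and 62.2 RPKM in HB and 144.6 and 112.8 RPKM in HF, followed by Zfp970 at 55.0 and 46.3 RPKM in HB and 127 and 120 RPKM in HF. The median member had a mean of 2.48 RPKM. Zfp970, Zfp972 and Zfp967 lie on the same chromosome (2) among close relatives, and where such copies share sequence the split of reads between them is uncertain.

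As a group, Zfp mRNAs took a smaller part of total mRNA in HB. Members supplied 0.349% and 0.337% of the mRNA reads in HB, against 0.719% and 0.701% in HF, with means of 0.343 ± 0.009% and 0.710 ± 0.013% (SD, n = 2 each). The HB share was 0.483 of the HF share, and the gap was larger than the spread between libraries of a diet. In ribosome-bound mRNA the same genes supplied 0.644% and 0.646% in HB, against 0.644% and 0.719% in HF, a ratio of 0.946, and HF replicate 1 lay at the level of the HB pair.

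**Figure D1:**
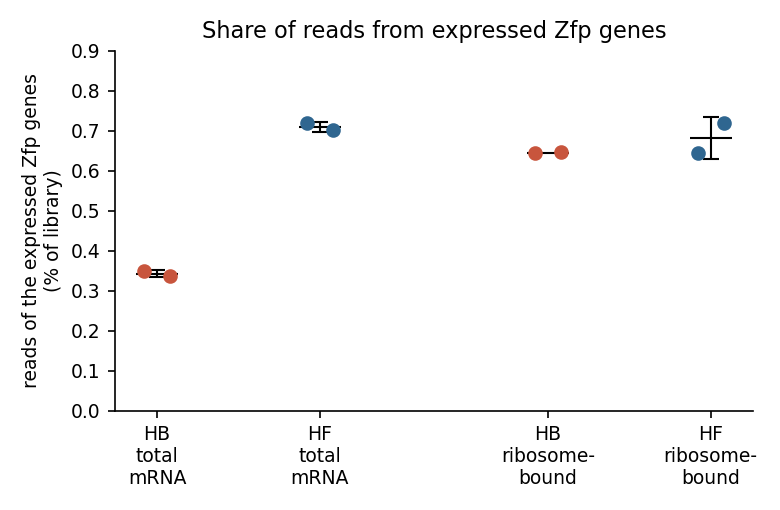
Percent of each library's reads that came from the 275 expressed Zfp genes (y axis), for HB and HF total mRNA and HB and HF ribosome-bound mRNA (x axis); points are libraries, dashes means and bars SD (no bar for the HB ribosome-bound pair, counted as 1 sample). The HB total-mRNA libraries sit at 0.349% and 0.337%, below the other 6, which lie between 0.644% and 0.719%.

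The diet comparison in total mRNA asked which Zfp mRNAs differ when betaine is added to the diet. Zfp mRNAs that passed the test were, with 1 exception, lower in HB. In edgeR's quasi-likelihood test on the 4 mRNA libraries, with Benjamini-Hochberg adjustment over 12817 genes and a threshold of 0.05, 74 of 275 members (26.9%) fell in HB, against 10.1% of all genes tested. One member, Zfp169, rose (0.364%), against 11.3% of all genes. The median log2 change of the members, HB over HF, was -0.64, against 0.01 for all genes tested, and 226 members lay below 0 and 49 above. Both HB libraries lay below both HF libraries for 177 members (64.4%), against 32.1% of all genes, and above them for 21 members (7.64%), against 32.8%. At an unadjusted p under 0.05 there were 113 members lower and 4 higher. The share of all genes at that cut is not given here, so these counts are not read as an excess. Scaled by library totals, without TMM, the genes had a median log2 change of -0.28, and 109 members were called lower, against 18.1% of all genes, and 0 higher, against 6.11%.

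The 74 members that fell had a median log2 change of -1.31 and ranged between -2.64 and -0.88, and 69 of them were at -1 or below. The limit on mean level let 31 members pass only through their HF level and 2 only through their HB level. Among the 242 members at 2 CPM or more in both diets, 64 (26.4%) were called lower and 0 higher, with a median log2 change of -0.57. Of the 31 that passed only through HF, 10 were called lower.

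The count of called members depended on single libraries. It was 15 members without HB replicate 1, against 2.02% of all genes called lower there, 22 without HF replicate 1 (3.42% of all genes), 42 without HF replicate 2 (6.91%) and 63 without HB replicate 2 (11.5%). The median over members was less affected, between -0.71 and -0.57. In a fit of 7 libraries that also holds the ribosome-bound ones, whose spread is far larger (common dispersion 0.464, against 0.0644 in the 4 mRNA libraries), edgeR called 0 members (smallest adjusted p 0.240). At an unadjusted p under 0.05 that fit had 32 of 275 members lower and 0 higher, against 1647 of 12634 genes in either direction. Its median log2 change over members was -0.63. On the 4 mRNA libraries DESeq2 called 79 members lower and 3 higher, and the share of all genes it called is not given here.

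In each range of mRNA level the share called lower was larger in Zfp members than in other expressed genes, a difference in share that was not tested. At 20 CPM or more, 53.0% of 66 members were called lower, against 12.9% of 5633 other genes, with a median log2 change of -0.98 against 0.10. At 10 to 20 CPM the shares were 27.3% of 55 members and 8.95% of other genes, at 5 to 10 CPM 18.8% of 69 and 7.86%, and at 2 to 5 CPM 12.9% of 85 and 5.89%. Among other genes the share called lower was larger in longer transcripts, so members were also set against genes of like length. In the shortest quartile of transcripts (under 1774 bases) 20.0% of 20 members were called lower, against 4.66% of other genes, and in the second quartile 34.2% of 76, against 9.27%. In the third quartile the shares were 25.8% of 93 members and 13.04% of other genes, and in the longest quartile (over 4237 bases) 23.3% of 86 and 14.7%. The median log2 change was -0.37 in members and 0.40 in other genes of the shortest quartile, and -0.55 and -0.24 in the longest.

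**Figure D2:**
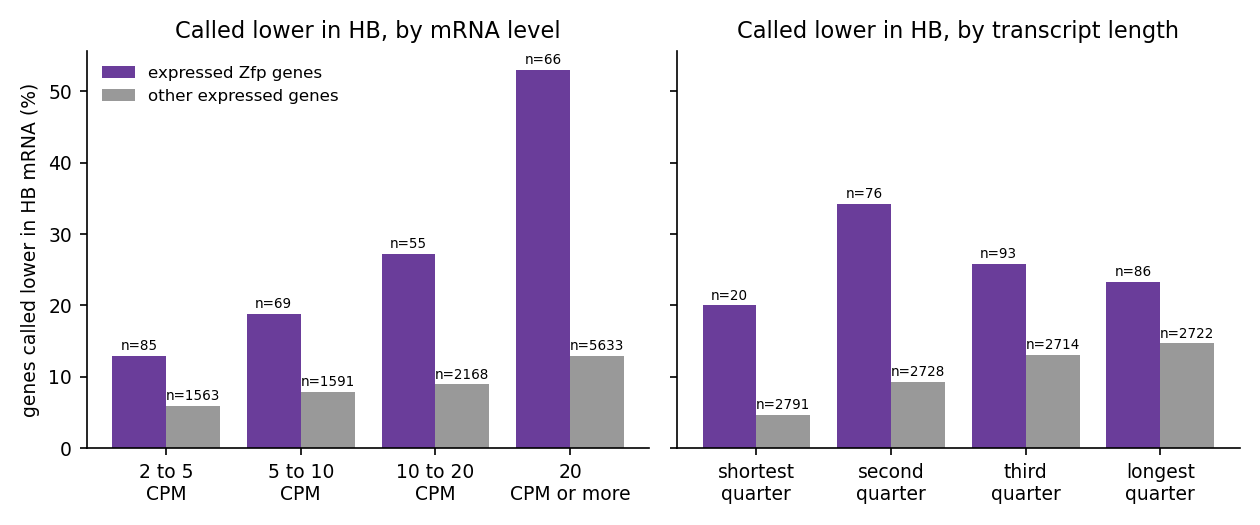
Percent of genes called lower in HB total mRNA (y axis, edgeR adjusted p under 0.05) among expressed Zfp genes and other expressed genes, by mean mRNA level (left) and by quartile of transcript length (right); n is the number of genes behind each bar. In each of the 8 bins the Zfp bar is the taller, with 53.0% against 12.9% at 20 CPM or more.

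Several measures moved with diet beside the Zfp genes. The HB mRNA libraries held 1.76 times the summed reads of the HF ones, so depth and diet cannot be told apart. Of the marker lists, 5 lymphocyte genes summed to 10.1 and 10.2 CPM in HB, against 22.8 and 30.0 CPM in HF, with 1 of 4 tested called lower and none at 0 in all libraries. Neutrophil markers summed to 1.64 and 2.05 CPM in HB, against 3.93 and 24.4 CPM in HF, with 2 of 2 tested called lower and Ly6g at 0 in each mRNA library. Red cell genes summed to 324 and 738 CPM in HB, against 187 and 178 CPM in HF, with 3 of 4 called higher. Kupffer cell and macrophage markers summed to 253 and 221 CPM in HB and 223 and 232 CPM in HF, with 3 of 6 called higher, and endothelial ones to 115 and 137 CPM in HB and 165 and 177 CPM in HF, with 0 of 5 called by edgeR. Stellate cell markers summed to 175 and 105 CPM in HB, against 92.2 and 88.7 CPM in HF, with 1 of 5 called higher. The part of these in the Zfp result was not tested. In bulk liver fewer cells of a type and less RNA per cell cannot be told apart.

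Among the members with the largest falls, 7 of 10 were called with any 1 of the 4 mRNA libraries left out. The 10 were taken from called members with both HB libraries below both HF libraries, so non-overlap in them was set by the choice. Zfp612 (chromosome 8, 110079705 to 110092753, GRCm38.p6 as for all gene spans here) had 12.8 and 18.7 CPM, TMM-scaled as are all member CPM below, in HB, against 60.4 and 74.4 CPM in HF. Its log2 change was -2.10 (SE 0.31, edgeR adjusted p = 0.00423). Zfp715 (chromosome 7, 43296522 to 43313300), whose promoter is shown above, had 11.5 and 16.7 CPM in HB, against 49.2 and 69.9 in HF, a log2 change of -2.08 (SE 0.32, edgeR adjusted p = 0.00477). In both genes the highest HB library lay far below the lowest HF library.

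Zfp182 (chromosome X, 21026184 to 21062113) had 6.47 and 5.33 CPM in HB, against 24.1 and 23.5 in HF, with nearly equal libraries within each diet and a log2 change of -2.01 (edgeR adjusted p = 0.00486). Zfp653 (chromosome 9, 22055411 to 22071395) had 8.38 and 16.0 CPM in HB, against 53.7 and 43.8 in HF (log2 change -2.01, edgeR adjusted p = 0.00677). Zfp451 (chromosome 1, 33761541 to 33815602), whose human counterpart is a SUMO ligase, had 8.99 and 14.4 CPM in HB, against 46.4 and 38.7 in HF (log2 change -1.87, edgeR adjusted p = 0.00666). HB replicate 1 was below HB replicate 2 in both.

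Zfp276 (chromosome 8, 123254195 to 123270551), the most abundant of the 10, had 42.6 and 109 CPM in HB, against 252 and 330 in HF, a log2 change of -1.94 (edgeR adjusted p = 0.0112). Its HB libraries lay more than 2-fold apart, so the change was -1.42 without HB replicate 1 and -2.77 without HB replicate 2. Zfp433 (chromosome 10, 81704747 to 81721976) had 5.19 and 4.00 CPM in HB, against 20.1 and 14.7 in HF (log2 change -1.92, edgeR adjusted p = 0.00722). The diets did not overlap in either gene, as the choice of the 10 required.

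The other 3 of the 10 were low genes whose calls rested on single libraries. They are among the 31 members that reached 2 CPM only through HF, the diet in which they were higher, so they entered the list through their HF level. Zfp57 (chromosome 17, 37001163 to 37010729), a KRAB protein that keeps methylation at imprinted regions, had 0.761 and 0.698 CPM in HB, against 6.63 and 2.59 in HF. Its log2 change of -2.64 was the largest among members (edgeR adjusted p = 0.0118), but the adjusted p was 0.0911 without HB replicate 1, 0.0619 without HB replicate 2 and 0.107 without HF replicate 1. Zfp697 (chromosome 3, 98381962 to 98431951) had 0.952 and 0.635 CPM in HB, against 2.68 and 4.00 in HF. Its log2 change was -2.05 (edgeR adjusted p = 0.0210; 0.0742 without HB replicate 1, 0.0742 without HB replicate 2 and 0.0886 without HF replicate 2). Zfp40 (chromosome 17, 23173869 to 23193284) had 1.76 and 1.40 CPM in HB, against 6.94 and 5.26 in HF. Its log2 change was -1.94 (edgeR adjusted p = 0.0136; 0.0596 without HB replicate 1 and 0.0648 without HF replicate 1).

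The only member called higher was Zfp169 (chromosome 13, 48480763 to 48513493), with 3.24 and 3.74 CPM in HB, against 0.552 and 1.57 in HF. It is 1 of the 2 members that reached 2 CPM only through HB. Its log2 change of 1.71 (SE 0.56, edgeR adjusted p = 0.0483) lost its call without HB replicate 1 (0.135), HB replicate 2 (0.137) or HF replicate 1 (0.351). Over all 74 members called lower, 13 kept the call with each of the 4 mRNA libraries left out. Beside the 7 named above these were Zfp488, Zfp263, Zfp280c, Zfp280d, Zfp579 and Zfp692. Zfp488 (chromosome 14, 33967070 to 33979034), a co-regulator of Olig2 in oligodendrocytes, had 110 and 110 CPM in HB, against 275 and 334 in HF (log2 change -1.47, edgeR adjusted p = 0.00892).

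**Figure D3:**
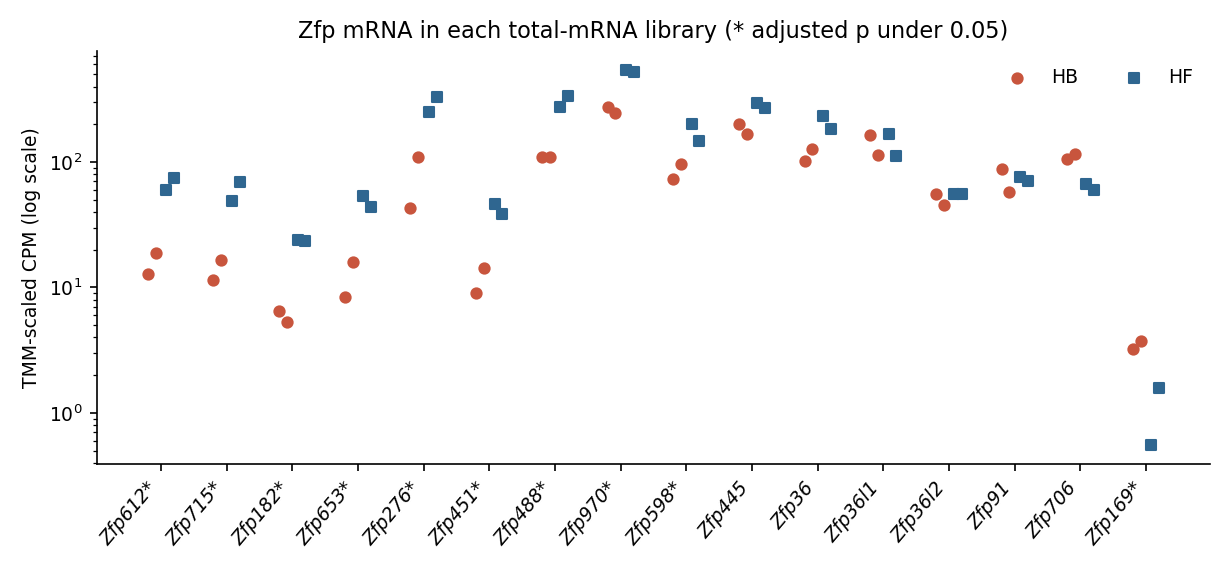
TMM-scaled CPM on a log axis (y) of 16 Zfp mRNAs (x) in each total-mRNA library, with HB as circles left of HF as squares; an asterisk marks an edgeR adjusted p under 0.05. The diets are apart for the genes with an asterisk, as in Zfp612 with 12.8 and 18.7 CPM in HB against 60.4 and 74.4 in HF, and overlap for Zfp36l1 and Zfp91.

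The mRNA decay factors were not called. Zfp36 (chromosome 7, 28376784 to 28379228), also known as tristetraprolin, had 101 and 126 CPM in HB, against 235 and 185 in HF. The diets did not overlap, but its log2 change of -0.89 missed the threshold (edgeR adjusted p = 0.0526). Zfp36l1 had 165 and 115 CPM in HB, against 166 and 111 in HF (log2 change 0.01), and Zfp36l2 had 55.5 and 45.8 CPM in HB, against 56.1 and 55.7 in HF (log2 change -0.14).

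The following groups by role are small, and their counts stand beside 26.9% of all members and 10.1% of all genes called lower. Of the Zfp proteins that act on ribosomes and RNA, Zfp598 was the 1 called of 5. Zfp598 had 73.3 and 95.8 CPM in HB, against 202 and 148 in HF. Its log2 change of -1.05 (edgeR adjusted p = 0.0317) was not called without HB replicate 1 (0.109) or HF replicate 1 (0.294). Zfp622, a factor in maturation of the large ribosomal subunit, had a log2 change of -0.05, and the RNA-binding protein Zfp106 one of 0.15. Zfp326, whose human counterpart couples splicing to elongation, was at -0.55 and Zfp638 at -0.70, neither past the threshold. Of the 3 regulators of ubiquitin, spindle and signalling, Zfp746 (known as PARIS, a repressor degraded through parkin) was called at -1.03 (edgeR adjusted p = 0.0442; 0.178 without HB replicate 1 and 0.412 without HF replicate 1). Zfp91, a ubiquitin ligase, was at 0.00 and Zfp207, which helps chromosomes attach to the spindle, at -0.38.

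Of 8 measured transcription factors on the list 3 were called, each lower. Zfp384 had 28.1 and 43.9 CPM in HB, against 95.1 and 73.6 in HF (log2 change -1.23, edgeR adjusted p = 0.0200; 0.0849 without HB replicate 1 and 0.148 without HF replicate 1). Zfp335 had 20.5 and 30.3 CPM in HB, against 56.6 and 46.7 in HF (log2 change -1.03, edgeR adjusted p = 0.0316; 0.105 without HB replicate 1, 0.249 without HF replicate 1 and 0.0731 without HF replicate 2). Zfp281, a regulator of pluripotency in embryonic stem cells, had 21.2 and 18.5 CPM in HB, against 39.8 and 35.5 in HF. Its log2 change of -0.92 (edgeR adjusted p = 0.0371) lost its call with each of the 4 libraries left out (0.0611 and 0.0578 without HB replicates 1 and 2, 0.288 and 0.138 without HF replicates 1 and 2). Not called were Zfp143, a promoter-bound factor of chromatin loops (-0.84), Zfp148 (-0.61), Zfp217 (-0.35), Zfp292 (-0.89) and Zfp703 (-0.12).

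Of 5 KRAB proteins with known targets on the list, Zfp57 was called and the other 4 were not. Zfp445 (chromosome 9, 122848910 to 122886851), which guards imprints together with Zfp57, had 201 and 168 CPM in HB, against 295 and 271 in HF, without overlap and without a call (log2 change -0.62, edgeR adjusted p = 0.140). Zfp809, which silences proviruses of murine leukemia virus, had a log2 change of 0.33, Zfp932, which silences endogenous retroviruses, one of -0.92 (edgeR adjusted p = 0.0845), and Zfp568, a repressor of a placental Igf2 transcript, one of 0.26. Of the other abundant members, Zfp970 (chromosome 2, 177464742 to 177479194) had 275 and 248 CPM in HB, against 547 and 518 in HF. Its log2 change of -1.03 (edgeR adjusted p = 0.0280) was not called without HB replicate 1 (0.0549), HF replicate 1 (0.182) or HF replicate 2 (0.112).

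Of 16 genes for the partners through which KRAB zinc finger proteins act, 3 fell (10.1% of all genes tested fell) and 1 rose (11.3% of all genes), with a median log2 change of -0.16 in HB mRNA. With 16 genes these counts are not read as a difference from those shares. Setdb1 had 20.5 and 26.0 CPM in HB, against 46.6 and 45.1 in HF (log2 change -0.98, edgeR adjusted p = 0.0290). Chd3, a remodeller of the NuRD complex, had a log2 change of -1.20 (edgeR adjusted p = 0.0211), and Morc3, a chromatin ATPase, one of -2.02 (edgeR adjusted p = 0.00507). Cbx1, a heterochromatin protein, rose by 1.60 (edgeR adjusted p = 0.0155). Trim28 itself had 52.5 and 76.4 CPM in HB, against 102 and 104 in HF, and missed the threshold (log2 change -0.68, edgeR adjusted p = 0.113).

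Other zinc finger families were counted at 2 CPM or more, where 10.4% of 10955 other genes were called lower. There, 4 of 38 Zbtb genes were called lower and 1 higher, with a median log2 change of -0.37, and 1 of 12 Klf genes lower and 2 higher (median 0.14). In Zscan 2 of 8 were lower (median -0.70), in Zkscan 2 of 8 (-0.32) and in the CCCH family Zc3h 4 of 14 (-0.62), with 0 higher in each of these 3 by edgeR. The Zdhhc genes, which encode palmitoyl transferases, had 3 of 17 lower and 2 higher (median -0.04). Most families hold few genes, and the differences between families were not tested.

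Members sat mostly in clusters. Chromosome 7 held 64 of the 275, chromosome 17 held 38, chromosome 13 held 22 and chromosome 8 held 19. Within 100 kb of another Zfp gene lay 154 members, with a median level of 6.97 CPM, and 121 stood apart, at 12.3 CPM. Of the clustered members 33 (21.4%) were called lower, with a median log2 change of -0.57. Of those apart 41 (33.9%) were called lower, with a median of -0.71, and of all genes tested 10.1%. Clustered members had 0 reads in all 4 ribosome-bound libraries in 21 cases (13.6%), and those apart in 7 (5.79%), against 8.54% of other expressed genes. At 20 CPM or more lay 24 of the clustered members and 42 of those apart, and both shares moved with level, as given for all members. The part of level in these differences was not tested.

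The ribosome-bound libraries asked which of these mRNAs were found with ribosomes. A large part of the members had no read there. The share with 0 reads was 28.0% and 28.4% in HB and 40.0% and 31.6% in HF, against 20.7% and 20.5% in HB and 28.4% and 23.9% in HF for other expressed genes. A count of 0 allows up to 3 reads, which is 0.461 and 0.346 CPM in HB and 0.519 and 0.466 CPM in HF. Reads were found in all 4 libraries for 119 members (43.3%), against 58.4% of other genes, and in none for 28 members (10.2%), against 8.54%.

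The higher share at 0 went with the low mRNA level of these genes. At 2 to 5 CPM of mRNA, 51.8% and 51.8% of members had 0 reads in HB and 65.9% and 55.3% in HF, against 60.5% and 60.4% in HB and 72.3% and 63.7% in HF for other genes of that level. At 20 CPM or more the shares for members were 6.06% and 7.58% in HB and 7.58% and 3.03% in HF, against 4.31% and 4.07% in HB and 7.92% and 5.24% in HF for other genes. Reads in proportion to mRNA would have given at least 20 reads to 212 and 233 members in HB and 245 and 254 in HF. Of these, 40 and 54 in HB and 86 and 73 in HF had 0. Such counts are not given for other genes, so they are not read as particular to Zfp mRNAs.

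**Figure D4:**
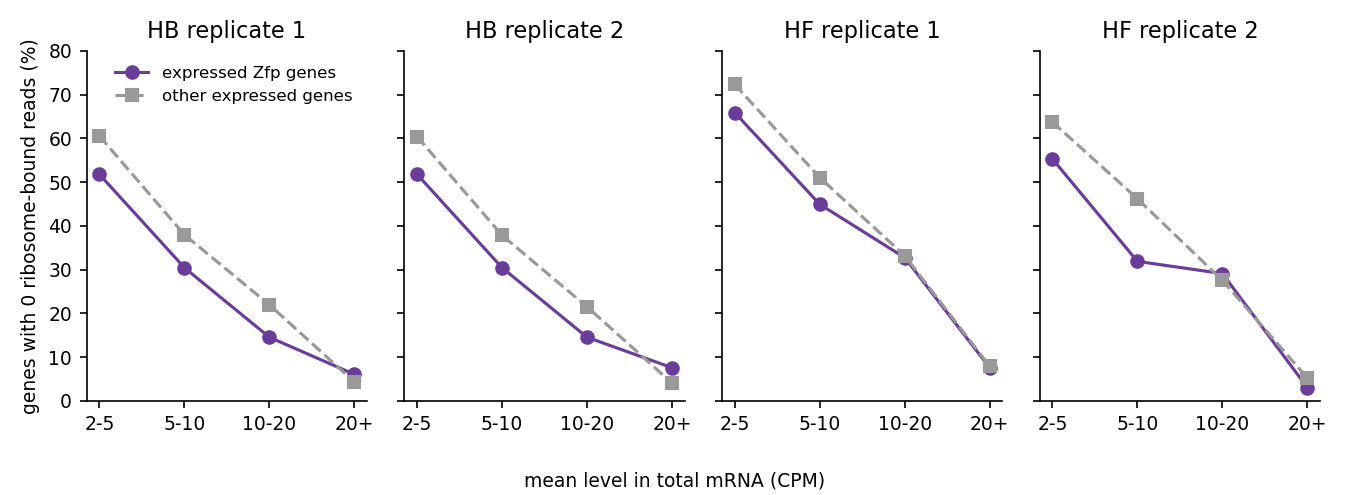
Percent of genes with 0 ribosome-bound reads (y axis) by mean level in total mRNA in CPM (x axis), for expressed Zfp genes (circles) and other expressed genes (squares) in each ribosome-bound library. At 2 to 5 CPM the Zfp points lie below the others in each library (51.8% against 60.5% in HB replicate 1), and at 20 CPM or more both lie under 8%.

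Absence was unstable between the HF libraries. In HF 93 members (33.8%) had reads in 1 library and 0 in the other, against 22.7% of other genes, and for 87 members the library with reads held over 20. In HB, whose libraries are counted as 1 sample, 3 members were found in 1 library only. Zfp40, for example, had 0 and 0 reads in HB and 0 and 202 in HF, and Zfp36 had 36 and 54 reads in HB and 141 and 0 in HF. Members with the most ribosome-bound reads were Zfp970, with 4659 and 6550 reads in HB and 3761 and 2788 in HF, Zfp445, Zfp276, Zfp592 and Zfp653. Zfp653 had 846 and 1167 reads in HB and 265 and 1576 in HF, so the 2 HF libraries lay on either side of the HB pair.

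Members with 0 reads in all 4 ribosome-bound libraries and the highest mRNA levels were Zfp280d, at a mean of 18.4 CPM of mRNA, Zfp568 at 13.2, Zfp367 at 8.78, Zfp729b at 7.05 and Zfp597 at 6.64. Zfp746, with 17.1 and 25.9 CPM of mRNA in HB and 53.2 and 34.3 in HF, had 0 and 0 ribosome-bound reads in HB and 1 and 0 in HF. The members Zfp169 and Zfp568 named above had no ribosome-bound read either.

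In the edgeR fit of 7 libraries 23 members (8.36%) were called higher in HB, against 7.61% of 12634 genes, and 12 (4.36%) lower, against 3.94%. Over the 247 members with a ribosome-bound read the median log2 change was -0.16, with 111 above 0 and 136 below, against a median of 0.01 over the 11002 genes with a read. Of the 247, 72 had 0 reads in 1 diet, and with these at the bound of 3 reads (4 at or under it left out) the median was again -0.16. Of the 23, 22 had 0 reads in both HF libraries and between 12.6-fold and 102-fold as lower bounds of the change (from a floor of 3 reads over the HF pair). Of the 12, 10 had 0 reads in the HB pair, with lower bounds between 30.6-fold and 210.4-fold. With any 1 mRNA library left out these counts were 0 and 0. Fits without 1 HF ribosome-bound replicate are not counted, since no ribosome-bound group there has a replicate and the spread comes from mRNA alone.

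Of the 74 members that fell in HB mRNA, 5 were called lower and 7 higher in ribosome-bound mRNA, and 62 were not called. Of all genes tested there, 3.94% were called lower and 7.61% higher, and the difference from these shares was not tested. The 74 come from the fit of 4 mRNA libraries and the ribosome-bound calls from that of 7 libraries. The latter fit called 0 members in mRNA, so a missing call in it is not read as a difference from mRNA. Zfp433 was the 1 of the 10 largest falls that was called lower in both. It had 0 and 0 ribosome-bound reads in HB, against 165 and 115 in HF, at least 116-fold lower (edgeR adjusted p = 0.0201). Zfp182 had 349 and 437 reads in HB, against 233 and 240 in HF (log2 change 0.50), Zfp715 had 326 and 408 in HB, against 191 and 390 in HF (log2 change 0.13), and neither was called. Zfp612 had 120 and 162 reads in HB, against 351 and 835 in HF, a log2 change of -2.28 that was not called (edgeR adjusted p = 0.108).

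Ribosome-bound mRNA was also set against total mRNA within each diet. In HB 22 members (8.00%) were higher in ribosome-bound than in total mRNA, against 6.36% of all genes, and 42 (15.3%) lower, against 22.0%, with a median log2 ratio of -0.05 in members and -0.71 over all genes. In HF 6 members (2.18%) were higher, against 3.92%, and 60 (21.8%) lower, against 24.7%, with medians of -0.36 and -0.56. The change of this ratio with diet was called higher in HB for 22 members (8.00%), against 6.49%, and lower for 10 (3.64%), against 4.02%. Over genes with a ribosome-bound read its median was 0.61 in members and 0.03 in all genes. Since it subtracts the mRNA change from the ribosome-bound one, it shares its libraries with both. None of the 22 and 10 calls held with any 1 mRNA library left out. Fits without 1 HF ribosome-bound replicate are not counted, for the reason given above.

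Zfp transcripts were long. The deposited transcript length had a median of 3412 bases over members (quartiles 2650 and 4623.5, range 697 to 13919), against 2766 bases for other expressed genes, and 247 members (89.8%) were over 2000 bases, against 68.4%. Members called lower in HB had a median length of 3311 bases and those not called 3464.5.

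Most expressed Zfp genes carried an m6A peak. A peak overlapped the gene span of 81.8% and 82.2% of members in HB and 82.2% and 85.1% in HF, against 61.7% and 61.0% in HB and 61.5% and 65.5% in HF for 10661 other expressed genes. The diets differed by less than the spread of the HF pair: the mean was 82.0 ± 0.26% in HB and 83.6 ± 2.06% in HF (SD, n = 2 each), a difference of -1.64 points. Peaks were found in all 4 libraries for 169 members (61.5%), against 38.4% of other genes, and in none for 10 (3.64%), against 16.3%.

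Among other genes the share with a peak was larger in longer transcripts, and the share in members was above that of other genes in each quartile of transcript length. In members the order with length did not hold throughout, since the shortest quartile lay above the second in 3 of the 4 libraries. In the shortest quartile 75.0% and 60.0% of 20 members had a peak in HB and 75.0% and 85.0% in HF, against 38.3% and 37.3% in HB and 37.9% and 42.3% in HF for other genes. In the longest quartile the shares were 89.5% and 91.9% in HB and 93.0% and 90.7% in HF for members, against 84.1% and 84.4% in HB and 83.9% and 86.6% in HF. Of the 275 spans 176 overlap no other gene.

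Summits in Zfp genes gathered in the later part of the gene span. Over the 230 members with a known strand, the median summit lay at 77.4% and 76.1% of the span in HB and 75.9% and 77.8% in HF, against 60.7% and 56.2% in HB and 61.7% and 62.5% in HF for other genes. The median distance to the gene end was 4567.5 and 5087.5 bases in HB and 4817 and 4035 bases in HF, against 20594 and 27526.5 in HB and 20626.5 and 19443.5 in HF for other genes. Beyond 75% of the span lay 53.7% and 52.3% of member summits in HB and 51.1% and 54.0% in HF, against 36.5% and 32.6% in HB and 37.4% and 38.0% in HF. Spans include introns, and the transcripts' exons were not used here.

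**Figure D5:**
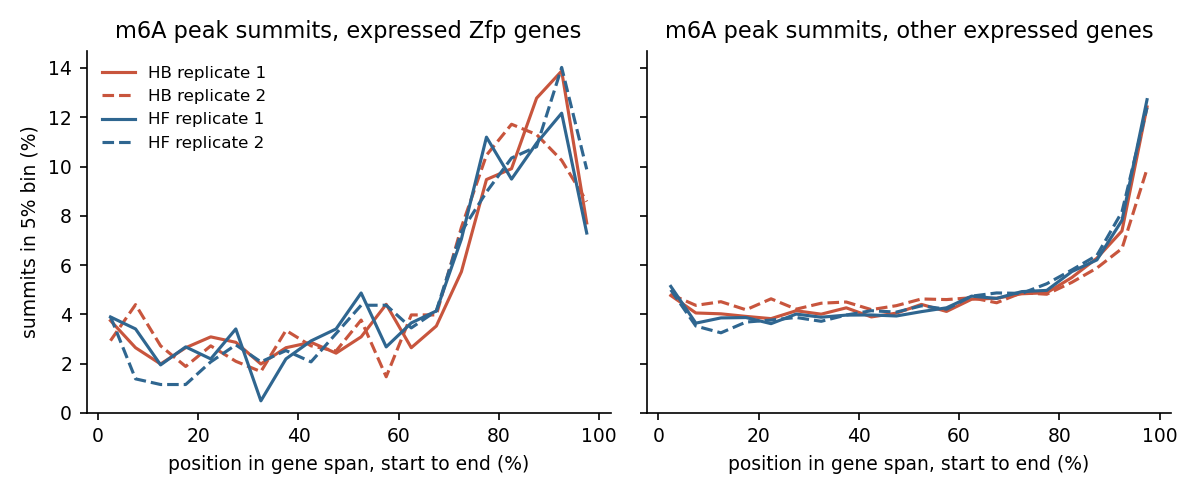
Percent of m6A peak summits (y axis) in each 5% bin of the gene span, start to end of the gene (x axis), for expressed Zfp genes (left) and other expressed genes (right), 1 line per library. Beyond 75% of the span lie between 51.1% and 54.0% of the Zfp summits in the 4 libraries, and between 32.6% and 38.0% of the summits in other genes.

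The 5 members with the highest enrichments, which are the authors' peak values, were Zfp472, Zfp688, Zfp707, Zfp629 and Zfp46. Zfp472 (chromosome 17, plus strand) had a peak at 32977958 to 32978686 (mm10) in HB replicate 2 with a fold enrichment of 61.5 and its summit 724 bases from the gene end. Its best peaks in the other libraries had 22.1 in HB replicate 1 and 22.6 and 19.3 in HF. Zfp688 (chromosome 7, minus strand) had a peak at 127418985 to 127419610 in HB replicate 1 with an enrichment of 57.0, 454 bases from the end, with 14.9 in HB replicate 2 and 14.05 and 32.1 in HF. Zfp707 (chromosome 15) had a peak at 75975240 to 75975617 in HB replicate 1 with an enrichment of 54.4, with 16.8 in HB replicate 2 and 10.9 and 23.8 in HF. It is not among the members of known strand, so no distance to its end is given. Its mRNA was called lower in HB (log2 change -1.06, edgeR adjusted p = 0.0431), with adjusted p between 0.0164 and 0.193 when 1 mRNA library was left out. Zfp629 had 30.7 and 37.4 in HB, against 46.9 and 48.8 in HF, with summits 3574 and 1315 bases from the end in HB and 1360 and 1357 in HF. Zfp46 had 48.3 and 9.85 in HB, against 7.18 and 9.88 in HF, with summits 2780 and 2631 bases from the end in HB and 1281 and 2959 in HF. In Zfp472, Zfp688, Zfp707 and Zfp46 the 2 HB libraries lay more than 2-fold apart.

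Few members had a peak in both libraries of 1 diet and in neither of the other. Zfp213, Zfp433, Zfp771 and Zfp963 had a peak in both HB and in neither HF library (1.45%, against 2.26% of other genes). Zfp36, Zfp57, Zfp346, Zfp511, Zfp791 and Zfp956 had one in both HF and in neither HB library (2.18%, against 3.09%). The HB mRNA libraries of Zfp36 and Zfp57 lay below those of HF, so a missing peak there cannot be told from lower mRNA. Zfp433, with peaks in HB only, was lower in HB mRNA too. The part of mRNA level in these peaks was not tested. Merged over libraries the members held 1385 peak regions. Of these 92 (6.64%, against 2.87% of regions in other genes) were found in 4 libraries, 114 in 3, 199 in 2 and 980 in 1. There were 38 regions in both HB lists only (2.74%, against 1.74% in other genes). In both HF lists only there were 31 (2.24%, against 2.41%). The 10 members without a peak included the abundant Zfp36l1, Zfp598, Zfp706, Zfp967 and Zfp335.

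The mRNA difference was also counted by m6A peaks, where the group without one holds only 10 members. The 169 members with a peak in all 4 libraries had a median log2 change of -0.59 in HB mRNA and 47 (27.8%) were called lower, against -0.07 and 12.3% for other genes with such peaks. The 10 members with no peak had a median of -0.89 and 4 were called lower, against 0.35 and 6.92% for other genes without one. Of the 169, 14 (8.28%) had no ribosome-bound read, and of the 10, 0 did. The 10 had a median level of 34.9 CPM, against 9.35 CPM in the 169. The part of level and of m6A in these shares was not tested.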

How the data were processed

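Total mRNA, ribosome-bound mRNA and m6A were measured in livers of HB and HF mice. The deposited read counts are reads per gene with no normalization, and the deposited RPKM values were scaled by the authors for transcript length and library reads, per the file headers. Alignment was to RefSeq RNA, per the labels. Per the labels' protocols, Trimmomatic 0.36 trimmed the m6A reads and TopHat 2.0.13 placed them. HOMER 4.8, MACS2 2.1.0.20151222, HISAT2 2.0.4, cutadapt 1.9.3, HTSeq 0.6.0, edgeR and the build mm10 stand in the submitters' processing notes without roles. The deposited peak lists were called per library and give a pileup signal and a fold enrichment, which is a ratio over background, per the file headers. Each deposited enrichment was at least 6.00, so the authors' lists had been filtered.

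Counts were analysed with edgeR 4.0.16 (TMM, filterByExpr, quasi-likelihood test) in R 4.3.3, and with limma 3.58.1 and DESeq2 1.42.0 as alternatives; tables were made with Python 3.11.15 and pandas 2.3.3. The diet contrast in mRNA used the 4 mRNA libraries (2 residual degrees of freedom). Contrasts with ribosome-bound mRNA used 7 libraries (12634 genes, 3 residual degrees of freedom) with the HB pair summed, so that group is assumed to vary like the others. The fit was tested on simulated data. Replicate numbers were not treated as pairs in the main fits (r = -0.11 between same-numbered mRNA libraries over 12817 genes). That value covers the mRNA libraries only and cannot exclude pairing. A gene had a peak if 1 base of it overlapped the RefSeq span (GRCm38.p6); 275 members and 10661 other genes matched by symbol. The 16 labelled samples include 4 m6A inputs, which were not used here. Members and gene lists were chosen with earlier results of these data known. Named were up to 10 members with the largest called change in each direction and both HB libraries on 1 side of both HF libraries. Also named were a written list of Zfp genes by role and the 5 highest in mRNA and in ribosome-bound reads. The 5 most abundant with no ribosome-bound read were added, as were the 5 with the highest and the 5 most abundant with no m6A peak. Members with other mention were chosen after their values were seen. Genes are not replicates, so shares of genes are given without a test. Counts measure reads without molecular identifiers, so floors cover counting error only.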

Additional observations from a re-analysis of the deposited data

Results flagged for a closer look

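For 5 of the named members the change with diet differed between ribosome-bound and total mRNA in the edgeR interaction term. Each had 0 ribosome-bound reads in 1 diet, so the fitted sizes depend on the prior count and are no bounds. Zfp57 and Zfp697 reached 2 CPM only through HF, so the choice of members favoured the mRNA falls that enter their interactions. Their mRNA calls rested on single libraries, as given above. Zfp57 had 66 and 81 ribosome-bound reads in HB, against 0 and 0 in HF (at least 39.4-fold higher), while its mRNA log2 change was -2.64; the fitted interaction was 12.44 (edgeR adjusted p = 0.0319). Zfp697 had 61 and 85 reads in HB, against 0 and 0 in HF (at least 39.2-fold higher), with an mRNA change of -2.05 and an interaction of 11.85 (edgeR adjusted p = 0.0319). Zfp472 had 70 and 132 reads in HB, against 0 and 0 in HF (at least 54.2-fold higher; interaction 10.92, edgeR adjusted p = 0.0319). Zfp326 had 43 and 65 reads in HB, against 0 and 0 in HF (at least 29.0-fold higher; interaction 9.90, edgeR adjusted p = 0.0335). Zfp433 moved the other way, with 0 and 0 reads in HB, against 165 and 115 in HF (at least 116-fold lower; interaction -9.09, edgeR adjusted p = 0.0319). The HB group is 1 sample here, for 87 members 1 HF ribosome-bound library held 0 reads while its partner held over 20, and no member was called in this comparison with any 1 mRNA library left out. The part of that spread in these 5 values was not tested.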

How the results depend on the processing

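The lower Zfp mRNA in HB kept its direction in each setting run, while its counts did not. The median log2 change of -0.64 was -0.93 with library totals (all genes -0.28), -0.85 and -0.57 with limma on log2(RPKM + 0.1) and log2(RPKM + 1) (all genes -0.24 and -0.16), -0.54 with a length trend removed, -0.75 for members of 5 CPM or more and -0.57 for those at 2 CPM or more in each diet. Relative to all genes it lay between -0.69 and -0.41. The 74 calls became 0 with 7 libraries; the 1 call higher became 0 with totals, 7 libraries, either limma fit, 5 CPM or both diets, 3 with DESeq2, no filter or the crossed replicate block, and 2 with the replicate block, the length trend removed or 1 CPM. With the replicate block 74 members were lower, and with the crossed pairing 90 were lower. The crossed pairing, the length trend and the limit in each diet were added after seeing the data. The shares of all genes called with either block are not given here, so these counts are not read as an excess. The median relative to all genes was -0.64 with each block. With 1 library left out the lower calls ranged from 15 to 63, the higher from 0 to 1 and the median from -0.71 to -0.57.

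Ribosome-bound counts were far less stable. With 1 library left out the calls for HB over HF ranged from 0 to 73 higher and 0 to 63 lower. In HB the ratio to mRNA ranged from 0 to 78 higher and 0 to 98 lower, in HF from 0 to 55 and 0 to 139, and its change with diet from 0 to 86 and 0 to 46. For HB over HF, members of 5 CPM or more gave 10 higher, and 39 were lower with DESeq2 and 20 with 8 libraries. For the ratio in HB 35 were higher with the replicate block, 44 with 8 libraries and 34 with limma, and 66 were lower with DESeq2 and 16 at 5 CPM. For the ratio in HF 12 were higher with totals, 21 with DESeq2, 11 with the replicate block, 15 with 8 libraries and 11 with limma, and 22 were lower at 5 CPM. The change of the ratio, a comparison added after seeing the data, had 10 higher at 5 CPM. At 5 CPM or more the share with 0 ribosome-bound reads was 17.4% and 17.9% in HB and 28.4% and 21.1% in HF. Beyond these ratios, the replicate block moved no count of calls by over 1.5 times except the count of 1 mRNA called higher. With peaks of at least 10-fold enrichment 71.3% and 58.5% of members had one in HB and 58.9% and 65.5% in HF; the difference between diets ranged from -3.09 to -0.18 points with 1 library left out. The shares of all genes called in these settings are not given here, so the counts of members are not read as an excess. The causes were not tested.

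Not run were members by a finger pattern in the protein, peaks over exons and annotated transcript lengths. With 2 libraries per diet, 2 to 3 residual degrees of freedom and a median of about 99 to 136 reads a member, the smallest fall called was -0.88 on the log2 scale.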
